A study of Mus musculus with 14 samples.

Results

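The genes of antigen presentation described here were 5 of the MHC class II pathway (H2-Aa, H2-Ab1, H2-Eb1, Cd74 and Ciita) and 5 of the class I pathway (H2-K1, H2-D1, B2m, Tap1 and Nlrc5). They were taken by symbol from the 24411 genes counted in the kidneys, and all 10 were among the 14300 genes tested. Whole kidneys of male C57/B6 mice aged 8 weeks had been profiled by bulk RNA sequencing, so each library pools every cell type of the organ. There were 4 libraries at day 0 and 5 libraries each at 1 and 3 days after renal ischemia-reperfusion injury (IRI), in which the blood supply of the kidney is stopped and then restored. The comparisons ask how the genes that present antigen differ between the uninjured and the injured kidney. The sources used here do not say whether the day 0 mice had a sham operation or whether each library came from a separate mouse, so the p-values measure the spread between these libraries. In the names of the deposited libraries the number had 1 digit in the 4 libraries of day 0, in 3 of day 1 and in 2 of day 3, and 3 digits in the other 5. What this number format stands for is not stated, and the formats were also compared with each other within days 1 and 3. At day 0 no library had 3 digits, so format and day cannot be told apart there.

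MHC molecules carry peptides to the cell surface, where T cells read them. Class I molecules, a heavy chain paired with beta-2 microglobulin, sit on almost every nucleated cell and show peptides from inside the cell, which the TAP transporter brings into the endoplasmic reticulum. Class II molecules, an alpha chain paired with a beta chain, belong chiefly to dendritic cells, macrophages and B cells, show peptides from material that was taken up, and can also appear on kidney tubule cells under inflammation. Both classes have promoters with X, X2 and Y boxes, bound by RFX, CREB and NF-Y factors, on which the coactivator CIITA (class II) or NLRC5 (class I) assembles, and class I promoters often add a kappa B site and an interferon-stimulated response element.

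The promoters are shown because the 2 class II genes fell together at day 3 and the 2 class I genes rose together at day 1. RefSeq windows from 250 bases before to 50 bases after the start of transcription were matched by symbol for 6 of the 10 members (H2-Aa, H2-Eb1, H2-K1, H2-D1, B2m and Tap1). The 250 bases before the start are printed 5′ to 3′ along each gene's strand, from build GRCm38.p6. H2-Aa lies at chr17:34287824-34288073 on the minus strand, H2-Eb1 at chr17:34305617-34305866 on the plus strand, H2-K1 (the farther upstream of 2 listed starts) at chr17:34000348-34000597 on the minus strand and H2-D1 at chr17:35262844-35263093 on the plus strand. Capitals mark the letters of 5 motifs on either strand: an X box spelled CTNGCAAC, the X2 core TGACG, the Y box ATTGG, kappa B (GGGNN followed by TTCCC) and the response element core GAANNGAAA.
H2-Aa: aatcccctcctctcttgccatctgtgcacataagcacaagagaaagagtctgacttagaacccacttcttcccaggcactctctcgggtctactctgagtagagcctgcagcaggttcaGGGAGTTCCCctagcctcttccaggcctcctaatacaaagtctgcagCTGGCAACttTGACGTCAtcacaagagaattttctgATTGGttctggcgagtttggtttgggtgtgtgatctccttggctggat
H2-Eb1: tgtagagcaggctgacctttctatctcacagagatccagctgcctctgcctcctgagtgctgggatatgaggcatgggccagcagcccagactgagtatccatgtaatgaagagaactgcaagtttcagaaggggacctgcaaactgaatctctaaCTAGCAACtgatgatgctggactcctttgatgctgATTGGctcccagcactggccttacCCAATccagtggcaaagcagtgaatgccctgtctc
H2-K1: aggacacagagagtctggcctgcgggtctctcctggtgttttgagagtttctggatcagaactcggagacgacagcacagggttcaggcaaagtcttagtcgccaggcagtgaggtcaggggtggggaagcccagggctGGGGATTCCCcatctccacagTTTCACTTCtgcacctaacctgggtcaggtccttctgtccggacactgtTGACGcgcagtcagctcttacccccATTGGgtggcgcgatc
H2-D1: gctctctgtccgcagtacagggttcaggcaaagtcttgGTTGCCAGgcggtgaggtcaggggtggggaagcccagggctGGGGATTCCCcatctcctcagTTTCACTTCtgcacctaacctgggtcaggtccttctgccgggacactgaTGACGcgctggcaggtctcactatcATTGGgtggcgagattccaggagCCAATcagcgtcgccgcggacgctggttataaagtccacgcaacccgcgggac

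The H2-Aa window held a kappa B match at -131 to -122 and an X box at positions -84 to -77, X2 cores from -74 to -67 and a Y box at -48 to -44, counted back from the start. The H2-Eb1 window had the same X box spelling at -94 to -87 and Y boxes at -59 to -55 and -35 to -31, with no TGACG. In the H2-K1 window, kappa B at -111 to -102 was followed by a response element core at -90 to -82, the X2 core at -41 to -37 and a Y box at -16 to -12. H2-D1 held the same kappa B and response element letters at -171 to -162 and -150 to -142, then the X2 core at -101 to -97, Y boxes at -76 to -72 and -53 to -49, and a match to the X box spelling on the minus strand at -212 to -205. The H2-K1 and H2-D1 windows were 90.4% identical over 228 aligned columns, 206 of them the same. Kappa B was found in 1.75% of all 32851 promoter windows in the table, the response element core in 7.52%, this X box spelling in 3.42%, the X2 core in 20.8% and the Y box in 37.4%. The X box and X2 spellings were added after the windows had been read, and they overlap no other capitals except in H2-Aa, where both strands of the X2 core overlap. A gamma-activated sequence, TTCNNNGAA, present in 8.3% of windows, was not among the letters of the 6 windows, and a looser X box, CCNNGNNAC, was left in lower case because 47.4% of windows hold it. B2m and Tap1 each held the X2 core and a Y box. A match of letters is a description and not a measured binding site.

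**Figure D1:**
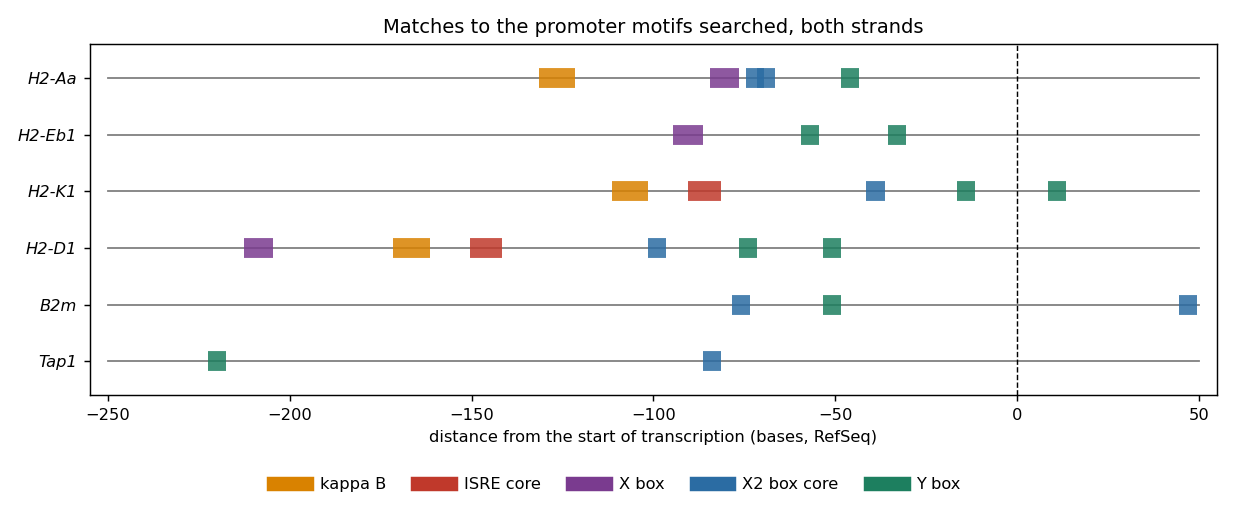
Matches to the 5 motifs (coloured blocks) by distance in bases from the RefSeq start of transcription (dashed line, 0) for the 6 members with a window, both strands. Kappa B blocks appear in H2-Aa, H2-K1 and H2-D1, and the response element core in H2-K1 and H2-D1.

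Each library held 12485579 to 20476979 reads on genes, 16485636 to 17935503 at day 0, 13399023 to 20476979 at day 1 and 12485579 to 19168972 at day 3. Levels are given as counts of a gene relative to all reads on genes (CPM), scaled between libraries by the TMM method. Replicate 2 of day 3 stood apart from the other 4 day 3 libraries in H2-Ab1, H2-Eb1 and Cd74, so results at day 3 are also given without it. That library was picked by its high values in these same genes. The fits without it show how far a result depends on it and are not independent tests. A difference was called when edgeR's quasi-likelihood test gave a Benjamini-Hochberg adjusted p under 0.05 over all genes tested. Fits of one format alone kept all day 0 libraries, which have 1-digit numbers. In such fits the 3-digit kidneys differ from day 0 in format as well as in day. In bulk tissue, fewer cells of a type and less RNA per cell cannot be told apart.

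H2-Aa, H2-Eb1 and Cd74 fell at day 3 against day 0. H2-Aa, the alpha chain of the I-A molecule (chr17:34282744-34287823, minus strand, GRCm38, 5 exons in its principal transcript), was at 40.8, 46.6, 33.4 and 38.3 CPM in replicates 1 to 4 of day 0. At day 1 it was at 16.4 and 16.6 CPM in the 3-digit replicates 1 and 2 and at 68.3, 56.0 and 61.9 CPM in the 1-digit replicates 3 to 5. At day 3 the values were 5.40, 21.6 and 4.46 CPM in the 3-digit replicates 1 to 3 and 3.70 and 10.1 CPM in the 1-digit replicates 4 and 5. All 5 kidneys of day 3 lay below all 4 of day 0, and the day 1 kidneys split to either side of day 0, with no day 1 value inside its range. H2-Aa at day 3 fell by 2.13 on the log2 scale against day 0 (SE 0.53, adjusted p = 0.00799), or 4.39-fold, and fell by 2.75 without replicate 2 (adjusted p = 0.000804). With number format as a term it was -1.61 (adjusted p = 0.0725). This term sets the same format effect for days 1 and 3, although that effect differed between the days in 4 class II genes, H2-Aa among them. At day 1 its difference was 0.14 (SE 0.52, adjusted p = 0.847).

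H2-Ab1, the beta chain of I-A (chr17:34257689-34269419, plus strand), is the partner of H2-Aa in I-A. Its day 0 values were 51.4, 57.5, 45.0 and 54.1 CPM. At day 1 it was at 18.5 and 24.3 CPM in the 3-digit kidneys and at 49.6, 45.3 and 43.0 CPM in the 1-digit kidneys. The day 3 values were 25.4, 68.9 and 15.3 CPM (3 digits) and 15.1 and 14.7 CPM (1 digit). Replicate 2 of day 3 was above every kidney of day 0, and the other 4 were below all of them. The difference at day 3 was -0.90 (SE 0.43, adjusted p = 0.122) with replicate 2 and -1.56 (SE 0.29, adjusted p = 0.00127) without it, so the call rests on that library. In the 1-digit kidneys alone it was -1.79 (adjusted p = 7.03e-06) and in the 3-digit kidneys alone -0.51 (adjusted p = 0.368). At day 1 the difference was -0.53 (SE 0.43, adjusted p = 0.337).

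H2-Eb1, the beta chain of the I-E molecule (chr17:34305867-34316674, plus strand, with Gm20513 on the other strand), was at 33.7, 41.6, 29.9 and 31.9 CPM at day 0. At day 1 the 3-digit kidneys had 11.1 and 13.9 CPM and the 1-digit kidneys 31.8, 28.2 and 29.7 CPM. At day 3 it was at 4.73, 19.1 and 4.90 CPM (3 digits) and at 4.03 and 4.63 CPM (1 digit). The day 3 kidneys did not overlap with day 0, and replicate 2 was the highest of the day. It fell by 2.19 at day 3 (SE 0.45, adjusted p = 0.00282), or 4.57-fold, and fell by 2.90 without replicate 2 (adjusted p = 3.16e-05). The day 1 difference was -0.58 (SE 0.44, adjusted p = 0.299), and it was called in the 3-digit kidneys alone (-1.45, adjusted p = 0.0475) but not in the 1-digit ones (-0.16, adjusted p = 0.305).

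H2-Ea-ps, annotated as a polymorphic pseudogene for the I-E alpha chain (chr17:34341959-34344645, minus strand, GRCm38), was read in all 14 libraries at levels like those of H2-Eb1. Mice of the b haplotype, that of C57BL/6, are known to carry a deletion at the start of this gene and to make no I-E alpha chain. H2-Ea-ps had 497 to 660 reads (28.6 to 38.8 CPM) at day 0, 212 to 581 reads (11.4 to 37.0 CPM) at day 1 and 36 to 185 reads (2.42 to 10.4 CPM) at day 3. There were 0.546 to 1.18 H2-Ea-ps reads for each H2-Eb1 read. The haplotype of the mice was not tested, since the deposited values are counts without sequence.

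Cd74, the invariant chain that guards the class II groove on the way to the endosome (on chromosome 18 at 60803848 to 60812652, plus strand, with Mir5107 inside it on the same strand), moved with the chains. Day 0 gave 83.2, 103.8, 80.2 and 72.1 CPM. Day 1 gave 41.0 and 44.7 CPM in the 3-digit kidneys and 108.4, 96.3 and 100.5 CPM in the 1-digit kidneys. Day 3 gave 13.3, 47.3 and 13.4 CPM (3 digits) and 7.67 and 15.9 CPM (1 digit), all below day 0. Cd74 fell by 2.12 at day 3 (SE 0.45, adjusted p = 0.00313), or 4.35-fold, and fell by 2.75 without replicate 2 (adjusted p = 7.5e-05). The day 1 difference was -0.12 (SE 0.44, adjusted p = 0.843).

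Ciita, the coactivator that switches class II genes on (chr16:10480059-10528418, plus strand, with Dexi on the other strand), was read only thinly. It had 31, 33, 30 and 30 reads at day 0, that is 1.78 to 1.94 CPM. At day 1 it had 4 and 28 reads in the 3-digit kidneys and 6, 2 and 6 in the 1-digit kidneys, from 0.114 to 1.27 CPM and all below day 0. At day 3 it had 13, 46 and 24 reads (3 digits) and 1 and 2 reads (1 digit), from 0.0672 to 2.59 CPM, with replicate 2 above day 0. In the 1-digit kidneys of day 1, Ciita was thus at 0.114 to 0.483 CPM where H2-Aa, H2-Ab1 and Cd74 were near or above their day 0 levels. The day 1 difference was -1.85 (SE 0.77, adjusted p = 0.0655), not called although the groups did not overlap. It was called without replicate 2 of day 1 (-2.62, adjusted p = 0.0176) and without replicate 2, 4 or 5 of day 3 (-1.85 to -1.82, adjusted p = 0.0374 to 0.0494). It was also called with DESeq2's Wald test (-1.89, adjusted p = 0.0423), with format as a term (-2.99, adjusted p = 0.00185) and in the 1-digit kidneys alone (-2.47, adjusted p = 0.000704), but not in the 3-digit kidneys alone (-1.28, adjusted p = 0.148). At day 3 it was -0.97 (SE 0.74, adjusted p = 0.324), with -1.77 (adjusted p = 0.062) without replicate 2. It was called at day 3 with format as a term (-2.80, adjusted p = 0.00923) and in the 1-digit kidneys alone (-4.02, adjusted p = 0.000376). The format term is shared by days 1 and 3, where the format differences of Ciita were 1.21 and 3.71.

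Of the class I genes, H2-K1, H2-D1, B2m and Tap1 rose at day 1. H2-K1, a classical class I heavy chain (chr17:33996017-34000347, minus strand, 8 exons), was at 96.6, 95.9, 81.7 and 97.8 CPM at day 0. At day 1 it was at 154 and 151 CPM in the 3-digit kidneys and at 242, 257 and 249.2 CPM in the 1-digit kidneys. At day 3 it was at 137, 124 and 119 CPM (3 digits) and at 139 and 229 CPM (1 digit). All kidneys of both later days lay above day 0. H2-K1 rose by 1.18 at day 1 (SE 0.22, adjusted p = 0.0011), or 2.26-fold, and by 0.68 at day 3 (SE 0.22, adjusted p = 0.0267), or 1.61-fold. The day 3 call was lost without replicate 5 (0.49, adjusted p = 0.0583) and without any 1 of the 4 day 0 libraries (0.63 to 0.71, adjusted p = 0.0511 to 0.0789).

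H2-D1, the other classical heavy chain with reads (chr17:35262730-35267499, plus strand), was at 72.2, 71.4, 62.0 and 68.1 CPM at day 0. The day 1 values were 144 and 116 CPM (3 digits) and 201, 238 and 188 CPM (1 digit), all above day 0. At day 3 they were 118, 53.1 and 79.6 CPM (3 digits) and 80.0 and 185 CPM (1 digit), and replicate 2, the kidney with the highest class II values of that day, was below every day 0 kidney. H2-D1 rose by 1.37 at day 1 (SE 0.31, adjusted p = 0.00321), or 2.59-fold. At day 3 the difference was 0.59 (SE 0.30, adjusted p = 0.141), and it was 0.75 (adjusted p = 0.0384) without replicate 2 and 0.28 (adjusted p = 0.404) without replicate 5. It was called with number format as a term (0.96, adjusted p = 0.0105). In the 1-digit kidneys alone H2-D1 was at 0.97 (adjusted p = 0.00746) and in the 3-digit kidneys alone at 0.29 (adjusted p = 0.346).

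B2m, beta-2 microglobulin, the light chain that all classical class I heavy chains need (chr2:122147686-122153083, plus strand, with Patl2 on the other strand), had the smallest differences of the 4 class I genes called at day 1. It was at 182, 195, 178 and 213 CPM at day 0. At day 1 it was at 211 and 247 CPM (3 digits) and at 248, 271 and 325 CPM (1 digit), with the first of these inside the day 0 range. At day 3 it was at 289, 334 and 263 CPM (3 digits) and at 279 and 225 CPM (1 digit), all above day 0. B2m rose by 0.44 at day 1 (SE 0.14, adjusted p = 0.0245) and by 0.54 at day 3 (SE 0.14, adjusted p = 0.0124). The day 1 call of B2m was lost in the 3-digit kidneys alone (0.26, adjusted p = 0.142) and without replicate 1, 2 or 3 of day 0 or replicate 5 of day 1 (0.35 to 0.45, adjusted p = 0.0532 to 0.0718).

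Tap1, a subunit of the peptide transporter (chr17:34187553-34197225, plus strand, next to Psmb9 on the other strand), was at 4.89, 4.65, 3.73 and 4.35 CPM at day 0. At day 1 it was at 6.95 and 10.3 CPM (3 digits) and at 11.3, 14.7 and 18.3 CPM (1 digit), and at day 3 at 11.2, 8.17 and 9.90 CPM (3 digits) and 8.34 and 11.97 CPM (1 digit). No injured kidney overlapped with day 0. Tap1 rose by 1.48 at day 1 (SE 0.26, adjusted p = 0.000672), or 2.79-fold, and by 1.17 at day 3 (SE 0.25, adjusted p = 0.00375), or 2.25-fold.

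Nlrc5, the coactivator of class I genes (chr8:94434356-94527272, plus strand, with Mir7072 on the same strand and 9330175E14Rik on the other), had 7 to 25 reads at day 0, 18 to 44 at day 1 and 14 to 44 at day 3. In CPM these were 0.442 to 1.47, 1.13 to 2.00 and 0.941 to 2.18, so the days overlapped. Neither difference was called, 0.58 at day 1 (SE 0.36, adjusted p = 0.207) and 0.80 at day 3 (SE 0.36, adjusted p = 0.101).

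**Figure D2:**
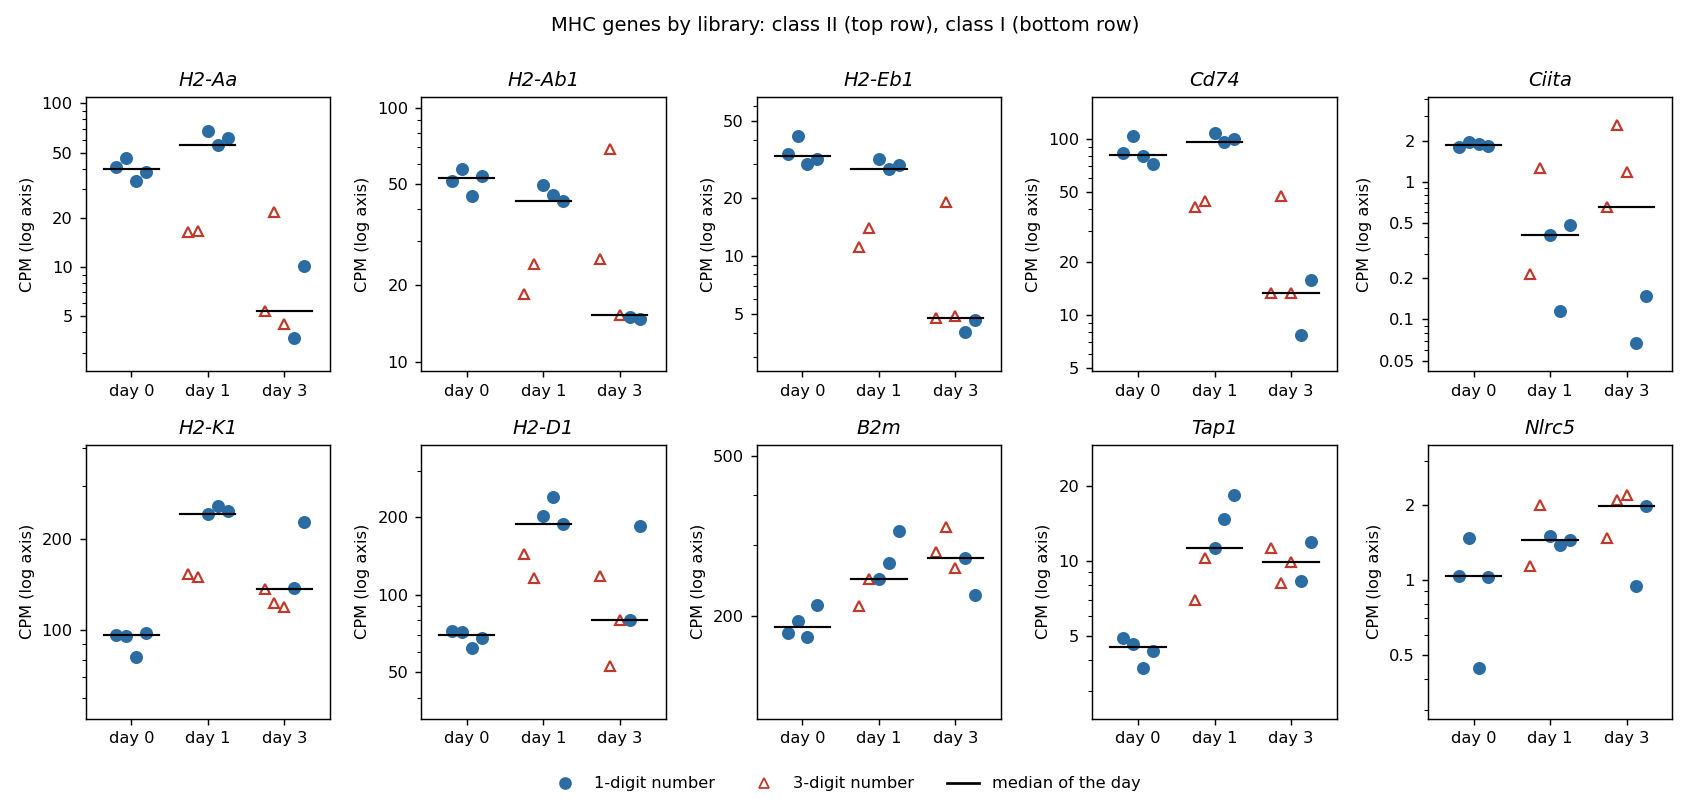
CPM of the 10 members in each of the 14 libraries (log axes) at day 0, 1 and 3, with filled circles for 1-digit and open triangles for 3-digit library numbers and a black line at the median of the day. H2-Aa, H2-Eb1 and Cd74 (top row) are below day 0 in all 5 libraries of day 3, and H2-K1, H2-D1 and Tap1 (bottom row) are above day 0 in all 5 libraries of day 1.

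By counts, 4 of the 10 members were called at day 1 against day 0, all of them class I and higher (H2-K1, H2-D1, B2m and Tap1), where 42.0% of all genes tested were called and 23.3% were called higher and 18.7% lower. At day 3 against day 0, 6 members were called, 3 class I genes higher (H2-K1, B2m and Tap1) and 3 class II genes lower (H2-Aa, H2-Eb1 and Cd74), beside 33.2% of all genes called, 19.4% higher and 13.8% lower. No class II gene was called at day 1 by edgeR (1, Ciita, had an unadjusted p under 0.05, and DESeq2 called it). Without replicate 2 of day 3, 8 members were called at day 3 (4 higher and 4 lower, with H2-D1 and H2-Ab1 added), beside 39.7% of all genes. Both comparisons share the day 0 libraries. The median difference over the 5 class II genes was -0.53 at day 1 and -2.12 at day 3, and over the 5 class I genes 1.18 and 0.68, where the medians of all genes tested were 0.0073 and 0.054.

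Between the injured days, 3 members were called, H2-Aa, H2-Eb1 and Cd74, all lower at day 3 than at day 1, beside 15.9% of all genes called, 8.49% higher and 7.37% lower. H2-Aa fell by 2.27 (SE 0.52, adjusted p = 0.0119), Cd74 by 2.00 (SE 0.43, adjusted p = 0.00939) and H2-Eb1 by 1.61 (SE 0.43, adjusted p = 0.0241), although the 2 days overlapped in each. The H2-Eb1 call was lost without any 1 of replicates 3, 4 and 5 of day 1 and replicates 1, 3 and 4 of day 3 (adjusted p = 0.056 to 0.0618) and with number format as a term (-1.54, adjusted p = 0.0512). Without replicate 2 of day 1, or without replicate 5 of day 3, 5 members were called, with H2-K1 and H2-D1 added as lower. Without replicate 2 of day 3, 4 members were called, all lower and H2-Ab1 among them (-1.03, adjusted p = 0.0266), beside 15.3% of all genes, with H2-Aa at -2.89 (adjusted p = 0.0032), Cd74 at -2.63 (adjusted p = 0.000783) and H2-Eb1 at -2.32 (adjusted p = 0.00108). None of the 5 class I genes was called by edgeR's main fit in this comparison (2 had an unadjusted p under 0.05). DESeq2 called 1, H2-D1, as did edgeR with the replicate number as a block. The nearest in the main fit were H2-D1 at -0.78 (SE 0.28, adjusted p = 0.0696) and H2-K1 at -0.49 (SE 0.20, adjusted p = 0.109). Among the 3-digit kidneys alone no member was called, with H2-Aa at -0.67 (adjusted p = 0.439), Cd74 at -0.81 (adjusted p = 0.276) and H2-Eb1 at -0.40 (adjusted p = 0.637). In the 1-digit kidneys alone the 4 class II chain and invariant chain genes were called, H2-Aa at -3.19 (adjusted p = 0.000165), Cd74 at -3.13 (adjusted p = 5.74e-05), H2-Eb1 at -2.80 (adjusted p = 1.63e-05) and H2-Ab1 at -1.64 (adjusted p = 5.26e-05).

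**Figure D3:**
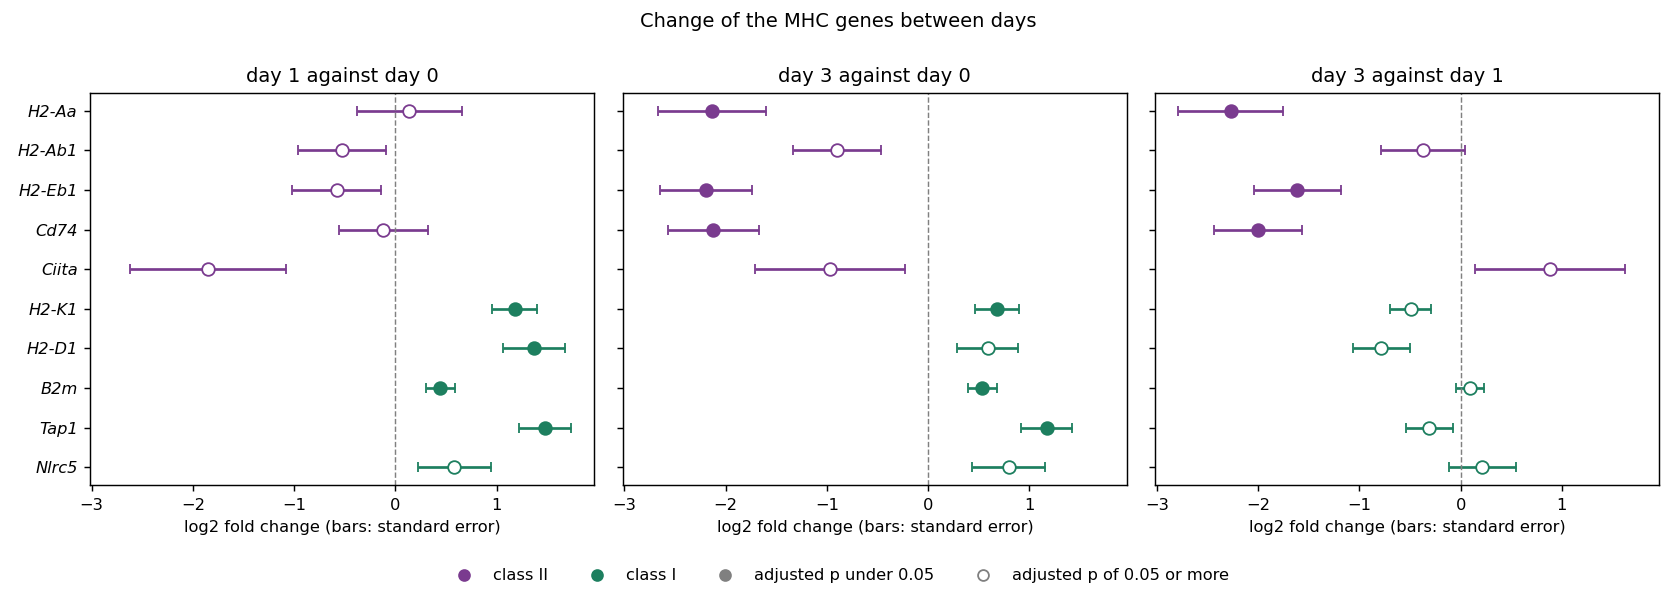
Log2 fold change (points) with its standard error (bars) of each member in the 3 comparisons of days, class II in purple and class I in green, filled where the adjusted p was under 0.05. At day 3 against day 0 the called class II genes lie between -2.19 and -2.12 and the called class I genes between 0.54 and 1.17.

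The kidneys were also compared by library number format within each day. At day 1 the values of the 3-digit kidneys lay below those of the 1-digit kidneys in all 4 class II chain and invariant chain genes, with no overlap. How many of all genes tested were without overlap by format was not counted. H2-Aa was called (fell by 1.91, SE 0.56, adjusted p = 0.0195), a call that was lost without replicate 1 (adjusted p = 0.0908) or replicate 2 (adjusted p = 0.121), the only 3-digit kidneys of day 1, and H2-Ab1 (-1.10, adjusted p = 0.0712), H2-Eb1 (-1.25, adjusted p = 0.0514) and Cd74 (-1.25, adjusted p = 0.0544) were not. H2-Eb1 and Cd74 were called with size factors by median ratios (adjusted p = 0.0437 and 0.0464), and all 3 were called when replicate 2 or replicate 3 of day 3 was left out. Ciita was at 1.21 at day 1 (adjusted p = 0.229), and at -0.56 (adjusted p = 0.735) without replicate 2. H2-K1 (fell by 0.71, SE 0.18, adjusted p = 0.00825) and Tap1 (fell by 0.77, SE 0.26, adjusted p = 0.0361) were lower in the 3-digit kidneys too, which made 3 of 10 members called, all lower, beside 34.9% of all genes called and 16.4% called lower. The Tap1 call was lost without replicate 1 (-0.53, adjusted p = 0.233), replicate 4 (-0.78, adjusted p = 0.0694) or replicate 5 (-0.59, adjusted p = 0.121) of day 1, and the H2-K1 call without replicate 2 (-0.70, adjusted p = 0.0716). The count was 1 without replicate 1 (H2-K1) or replicate 2 (Tap1) of day 1, and 6 by DESeq2, with the 3 uncalled class II chain and invariant chain genes added. H2-D1, at -0.69 (adjusted p = 0.118), and B2m, at -0.30 (adjusted p = 0.176), were also without overlap.

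At day 3 the 3-digit kidneys had the higher means in the class II genes, H2-Aa and Cd74 overlapped between the formats, and edgeR called none of the chains or Cd74 (DESeq2 called H2-Ab1, adjusted p = 0.0156): H2-Ab1 at 1.29 (SE 0.46, adjusted p = 0.0632), H2-Eb1 at 1.14 (SE 0.50, adjusted p = 0.122), Cd74 at 1.07 (SE 0.48, adjusted p = 0.135) and H2-Aa at 0.60 (SE 0.57, adjusted p = 0.471). Without replicate 2, which is a 3-digit kidney, these values were 0.45, 0.15, 0.19 and -0.48. Without replicate 1 of day 3, H2-Ab1 (1.498, adjusted p = 0.0321), H2-Eb1 (1.46, adjusted p = 0.0298) and Cd74 (1.37, adjusted p = 0.0416) were called, and without replicate 3 H2-Ab1 was (1.68, adjusted p = 0.0206). Ciita was called (3.71, SE 0.95, adjusted p = 0.0212), from 83 reads in the 3-digit kidneys and 3 reads in the 1-digit kidneys, a ratio of CPM of 13.7 with a 95% exact interval from 4.52 to 67.7 that covers counting error only. H2-K1 was lower in the 3-digit kidneys (fell by 0.54, SE 0.17, adjusted p = 0.046), as at day 1. H2-D1, at -0.67 (adjusted p = 0.151), was called when replicate 1 (-0.996, adjusted p = 0.0278) or replicate 4 (-1.15, adjusted p = 0.0221) of day 3 was left out. These 2 of 10 members stand beside 18.4% of all genes called by format at day 3, 10.2% higher and 8.24% lower. The Ciita call was lost without replicate 2 (3.05, adjusted p = 0.0571), replicate 4 (3.26, adjusted p = 0.0844) or replicate 5 (4.29, adjusted p = 0.126) of day 3. The H2-K1 call was lost in 12 of the 14 fits that left out 1 library, those without any 1 library of day 0 or day 1 and without replicate 2, 3 or 5 of day 3 (-0.54 to -0.15, adjusted p = 0.0511 to 0.563).

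The difference between the format effects of the 2 days was tested as an interaction and was called for 4 members, all class II, beside 17.5% of all genes called, 9.09% in that direction and 8.43% in the other. H2-Aa differed by -2.51 (SE 0.79, adjusted p = 0.0462), H2-Ab1 by -2.40 (SE 0.64, adjusted p = 0.0223), H2-Eb1 by -2.39 (SE 0.68, adjusted p = 0.0299) and Cd74 by -2.31 (SE 0.67, adjusted p = 0.033). The count was 0 without replicate 1 or replicate 2 of day 1 or replicate 4 of day 3, 1 without replicate 3 of day 1, and 2 without replicate 5 of either day, with the sign unchanged in each of the 4 genes. Without replicate 2 of day 3 all 4 stayed called with smaller differences, -1.42 in H2-Aa, -1.55 in H2-Ab1, -1.41 in H2-Eb1 and -1.43 in Cd74 (adjusted p = 0.0454, 0.00519, 0.0051 and 0.0161). The H2-Aa call was lost in 10 of the 14 fits that left out 1 library, those without any 1 library of day 0 or day 1 or without replicate 4 of day 3. The 5 class I genes had differences of -0.72 to -0.022 with adjusted p from 0.132 to 0.978. With the day 3 kidneys of either format alone set against the same 1-digit day 0 kidneys, each of the 10 members kept its direction. For the 3-digit kidneys this comparison differs in format as well as in day. H2-Eb1, for example, was at -2.96 in the 1-digit kidneys and -1.84 in the 3-digit kidneys, and Ciita at -4.02 (adjusted p = 0.000376) and -0.33 (adjusted p = 0.667). At day 1 against day 0, H2-Aa changed sign with the format, at 0.67 (adjusted p = 0.0314) in the 1-digit kidneys and -1.26 (adjusted p = 0.0872) in the 3-digit kidneys, and Cd74 did so at 0.29 and -0.98, neither called.

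**Figure D4:**
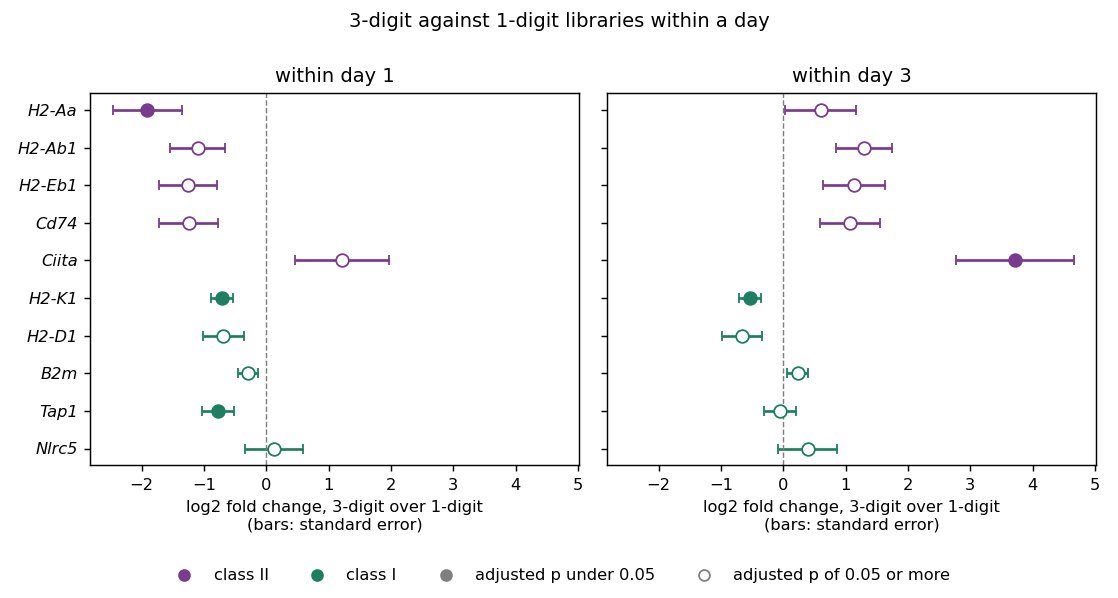
Log2 fold change of the 3-digit over the 1-digit libraries (points) with its standard error (bars) for each member within day 1 and within day 3, filled where the adjusted p was under 0.05. The 4 class II chain and invariant chain genes lie between -1.91 and -1.10 within day 1 and between 0.60 and 1.29 within day 3.

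The members also changed relative to one another, which is given as a description of reads in the same library, with no test. There were 1.23 to 1.41 H2-Ab1 reads for each H2-Aa read at day 0. At day 1 the ratio was 1.13 and 1.46 in the 3-digit kidneys and 0.696 to 0.809 in the 1-digit kidneys. At day 3 it was 3.19 to 4.72 in replicates 1 to 4 and 1.45 in replicate 5. The alpha and the beta chain of one molecule thus stood in a different proportion in 4 of the 5 day 3 kidneys than in any kidney of day 0 or 1. Replicate 2 of day 3, whose summed class II level was 157 CPM beside 30.5 to 48.9 CPM in the other 4, had the lowest ratio of replicates 1 to 4. H2-Eb1 per H2-Aa was 0.824 to 0.894 at day 0, 0.675 and 0.839 in the 3-digit and 0.465 to 0.505 in the 1-digit kidneys of day 1, and 0.877 to 1.1 in replicates 1 to 4 of day 3 but 0.457 in replicate 5. H2-K1 reads per H2-Aa read went from 2.06 to 2.56 at day 0 up to 3.54 to 9.36 at day 1 and 5.72 to 37.5 at day 3.

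Within class I, H2-D1 reads per H2-K1 read were 0.696 to 0.758 at day 0, 0.753 to 0.934 at day 1 and 0.429 to 0.856 at day 3, the lowest in replicate 2. B2m reads per read of both heavy chains were 1.08 to 1.28 at day 0 and 0.548 to 0.926 at day 1, so all 5 kidneys of day 1 had fewer light chain reads per heavy chain read than any of day 0. At day 3 this ratio was 0.544 in replicate 5 and 1.13 to 1.89 in the other 4.

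Per kilobase of the principal transcript, B2m had the highest level of the 10 members on each day, at 223 ± 18.4 CPM per kilobase at day 0 (SD, n = 4), 303 ± 48.8 at day 1 and 323 ± 46.0 at day 3 (SD, n = 5 each), with no overlap with the next gene. At day 0 the order went on with Cd74 (60.2 ± 9.57), H2-K1 (57.5 ± 4.67), H2-Ab1 (42.9 ± 4.35), H2-Aa (35.3 ± 4.87), H2-D1 (32.6 ± 2.22) and H2-Eb1 (20.5 ± 3.08), of which Cd74 and H2-K1, H2-Ab1 and H2-Aa, and H2-Aa and H2-D1 overlapped. At day 3 H2-K1 (92.3 ± 27.9) and H2-D1 (49.0 ± 24.3) came directly after B2m, ahead of H2-Ab1 (23.01 ± 19.3), Cd74 (13.8 ± 11.2), H2-Aa (8.03 ± 6.61) and H2-Eb1 (4.48 ± 3.895), each overlapping with the next. Tap1 was at 1.49 ± 0.170 at day 0 and 3.36 ± 0.576 at day 3. Nlrc5 and Ciita, the 2 coactivators, were the lowest on each day, and Ciita stood above Nlrc5 at day 0 (0.309 ± 0.0121 and 0.131 ± 0.0557) without overlap and below it in mean at day 1 and day 3 with overlap.

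The deposited counts hold uniquely mapped reads only, so reads that fit several class I genes equally well are not in them. Of 20 class I heavy chain symbols in the region, 7 (H2-L, H2-Q6, H2-Q7, H2-Q8, H2-Q9, H2-T22 and H2-T9) were listed at 0 reads in all 14 libraries. Of the windows of 50 bases along the principal transcript, 14.3% of H2-D1 and 8.79% of H2-K1 were found unchanged in transcripts of other genes, led by H2-Q1 and H2-D1, and 0.861% of Tap1 in Tap2. At 100 bases this was 4.64% for H2-D1 and 0 for the other 9 members. Reads from such stretches of H2-K1 and H2-D1 would be missing from their counts, and 7 members (the 5 class II genes, B2m and Nlrc5) had no shared window at either length.

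The accessory genes of class II called against day 0 were 3 processing enzymes of the endosome. Of 9 accessory genes, 6 could be tested, and 3 were higher at day 1 and 2 at day 3, none lower (list median 0.35 and 0.37). Ctss, the protease that trims the invariant chain, was at 6.79 to 13.2 CPM at day 0 and 22.9 to 38.4 CPM at day 3 (1.22 at day 1, adjusted p = 0.000897, and 1.74 at day 3, adjusted p = 0.000141). Lgmn, an endosomal protease, rose by 0.70 and 0.55 (adjusted p = 0.0132 and 0.0485), and Ifi30, a lysosomal thiol reductase, by 0.55 at day 1 (adjusted p = 0.016) with 0.39 at day 3 (adjusted p = 0.077). H2-DMa, an editor of the peptide load, was at 3.47 to 5.06 CPM at day 0 and 3.43 to 7.43 CPM at day 3 (0.34, adjusted p = 0.273). H2-DMb1 and H2-DMb2, beta chains of the same editor, were not called against day 0 but were called by format at day 3. H2-DMb1 was at 1.98 to 3.89 CPM in the 3-digit and 0.367 and 0.673 CPM in the 1-digit kidneys of day 3 (2.32, adjusted p = 0.0102), and H2-DMb2 at 1.63 to 5.13 and at 0.404 and 0.661 CPM (2.41, adjusted p = 0.026). By format at day 1 they were at 0.094 and -0.69 (adjusted p = 0.884 and 0.382), and the difference between the days was called for both (-2.23 and -3.10, adjusted p = 0.0304 and 0.0284).

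Of 7 genes tested for the factors that bind the X, X2 and Y boxes, 1 was higher and 1 lower at day 1 (list median -0.12). At day 3 none was called by edgeR (3 at an unadjusted p under 0.05, and 3 by DESeq2), with a list median of -0.41, and 2 were called without replicate 2. Nfyb, a subunit of NF-Y, rose by 0.56 at day 1 (adjusted p = 0.00668) and Creb1, the CREB factor, fell by 0.77 (adjusted p = 0.0424). Creb1 was at 12.9 to 18.4 CPM in the 1-digit and 35.99 to 39.7 CPM in the 3-digit kidneys of day 1, beside 38.0 to 49.0 CPM at day 0, a difference by format of 1.25 (adjusted p = 0.00047). Nfyc (36.1 to 59.6 CPM at day 1 beside 49.2 to 53.8 at day 0) and Nfya (10.8 to 33.8 beside 31.2 to 39.6) were not called against day 0. By format, Nfya was higher in the 3-digit kidneys of day 1 (1.27, adjusted p = 0.00154) and of day 3 (1.095, adjusted p = 0.0119), and Nfyc was lower in those of day 1 (-0.53, adjusted p = 0.0165). Of the RFX subunits, Rfx5 was higher (0.62, adjusted p = 0.0275) and Rfxap lower (-0.89, adjusted p = 0.00486) in the 3-digit kidneys of day 1.

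Of 12 genes of class I peptide loading, 6 were higher and 2 lower at day 1, and 6 higher and 3 lower at day 3 (list median 0.34 and 0.46). The higher ones, on both days, were Tap2, Tapbp, Psmb8, Psmb10, Psme1 and Psme2. Tapbp (tapasin, which holds the heavy chain at the transporter) was at 74.0 to 79.9 CPM at day 0, 94.5 to 131.8 at day 1 and 86.0 to 174 at day 3 (0.61 and 0.64, adjusted p = 0.0185 and 0.0182). The lower ones were chaperones that the endoplasmic reticulum uses for many proteins. Calr (calreticulin) fell by 0.77 at day 1 and by 1.08 at day 3 (adjusted p = 0.0464 and 0.0123), Canx (calnexin) by 0.56 and 0.61 (adjusted p = 0.0193 and 0.0157), and Pdia3 by 0.62 at day 3 (adjusted p = 0.0248).

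Of 14 other class I heavy chains 10 could be tested, with 4 higher and 1 lower at day 1 and 1 higher at day 3 (list median 0.83 and 0.51), and 3 were called at day 3 without replicate 2. H2-Q4, a nonclassical chain, was at 31.0 to 33.0 CPM at day 0 and 42.7 to 158 CPM at day 1 (1.69, adjusted p = 0.00291), with 42.7 and 46.6 CPM in the 3-digit and 126.3 to 158 CPM in the 1-digit kidneys (format difference -1.66, adjusted p = 0.000224). H2-T24 fell by 2.59 at day 1 (adjusted p = 0.00259), and H2-T23, at 62.8 to 71.6 CPM at day 0 and 26.6 to 58.7 CPM at day 1, was not called (-0.49, adjusted p = 0.164). Mr1, which presents vitamin metabolites, and H2-Q1 were at -0.76 (adjusted p = 0.0949) and 1.42 (adjusted p = 0.00397) at day 1.

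In interferon gamma signalling, which drives both coactivators, 8 of 10 tested genes were higher at day 1 and 4 at day 3, none lower (list median 1.17 and 0.63). Ifng itself, an 11th gene, had reads in 1 of the 14 libraries and was not tested. Of its receptor chains, Ifngr1 went from 29.7 to 37.3 CPM at day 0 to 73.6 to 112.5 at day 1 and 88.4 to 103.3 at day 3 (1.35 and 1.49, adjusted p = 2.1e-05 and 1.1e-05), and Ifngr2 rose by 1.53 and 1.25 (adjusted p = 0.000218 and 0.00109). The kinases Jak1 and Jak2 rose at day 1 (0.51 and 0.59, adjusted p = 0.00971 and 0.0395) and were not called at day 3. Of 7 costimulation genes 5 could be tested, with 4 higher at day 1 and 2 at day 3 (list median 1.15 and 0.64). Icam1, an adhesion molecule that T cells bind, rose by 2.34 and 1.76 (adjusted p = 8e-05 and 0.000727), Icosl by 0.95 at day 1 (adjusted p = 0.00936), and Cd40, a receptor on presenting cells, by 1.15 and 1.32 (adjusted p = 0.0174 and 0.0114). Cd274, which restrains T cells, was at 2.48 to 13.4 CPM at day 1 beside 3.24 to 3.93 at day 0 (1.25, adjusted p = 0.0718).

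Marker genes of the cells that can carry class II did not all move one way. The summed level of 8 macrophage genes was 113 to 164 CPM at day 0, 87.0 to 126 at day 1 and 95.8 to 174 at day 3. Csf1r, the receptor of a macrophage growth factor, fell by 1.65 and 1.86 (adjusted p = 0.00019 and 0.000127) from 83.98 to 97.98 CPM at day 0, and Cd68, a lysosomal protein of phagocytes, rose by 3.57 and 3.53 (adjusted p = 6.4e-05 and 0.00011) from 1.26 to 2.36 CPM. In all, 2 of the 8 were higher and 1 lower at day 1, and 3 higher and 1 lower at day 3. In the 3-digit kidneys the sum was 124 and 126 CPM at day 1 and 125 to 174 at day 3, and in the 1-digit kidneys 87.0 to 92.2 and 95.8 and 107 CPM, so the macrophage sum was higher in the 3-digit kidneys on both days, where the 4 class II genes were lower at day 1 and had the higher means at day 3. By format, none of the 8 genes was called at day 1 by edgeR (3 had an unadjusted p under 0.05), with Csf1r at -0.046. At day 3, 4 were higher in the 3-digit kidneys and 1, Cd68, was lower (-1.23, adjusted p = 0.0208).

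The dendritic cell list summed to 5.81 to 6.94 CPM at day 0, 5.17 to 6.596 at day 1 and 5.40 to 10.1 at day 3. Of its 7 genes 3 could be tested. None was called at day 1 by edgeR (none at an unadjusted p under 0.05, and none by DESeq2). At day 3 Zbtb46, a transcription factor of classical dendritic cells, was higher (0.92, adjusted p = 0.048), though not without replicate 5, and Itgax was at 0.26 (adjusted p = 0.736). Xcr1 and Clec9a, which define the dendritic cells that present to CD8 T cells, were too thinly read to be tested. Xcr1 was at 0.242 to 0.353 CPM at day 0 and at most 0.0563 CPM in any injured kidney, with 0 reads in 8 of the 14 libraries. Clec9a was at 0.363 to 0.589 CPM at day 0 and at most 0.169 CPM afterwards, with 0 reads in 6 libraries, so neither gene's injured kidneys overlapped with day 0. Cd209a and Flt3, also too thinly read to be tested, had means of 0.660 and 0.222 CPM at day 0. Their means were 0.0624 and 0.0837 CPM at day 1 and 0.0437 and 0.0359 CPM at day 3.

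B and plasma cell genes summed to 0.821 to 2.00 CPM in 3 of the day 0 kidneys and to 38.7 in replicate 4, where Jchain, an antibody chain of plasma cells, was at 36.5 CPM, and Jchain was 1 of 2 tested genes and was called lower on both days by edgeR (-3.63 and -4.70, adjusted p = 0.0145 and 0.00689) and on neither by DESeq2. The other one, Cd79b, was at 0.18 and -0.64 and was not called. The T and NK cell list summed to at most 3.27 CPM, and Cd8a, its 1 tested gene, fell by 2.23 and 2.93 (adjusted p = 0.0079 and 0.00296), with Cd4 at a mean of 0.292 CPM.

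Neutrophil genes rose most, all 4 tested on both days (list median 6.595 and 7.107), from a sum of 1.2 to 1.84 CPM at day 0 to 44.8 to 192 at day 1 and 17.1 to 400 at day 3. S100a9 and S100a8, abundant cytosolic proteins of neutrophils, rose by 6.64 and 6.55 at day 1 and by 6.93 and 7.28 at day 3 (adjusted p = 0.000227 to 0.000578). The sum of the neutrophil genes was highest in replicate 5 of day 3 (400 CPM), the kidney with the highest H2-K1, H2-D1 and Tap1 of that day. It was lowest of the day in replicate 2 (17.1 CPM), the kidney with the lowest H2-D1 and Tap1, while H2-K1 was lowest in replicate 3 (119 CPM). B2m went the other way, lowest of the day in replicate 5 (225 CPM) and highest in replicate 2 (334 CPM). Nlrc5 had neither extreme of the day in these kidneys. Of 6 endothelial genes 2 were higher at day 1 and none was called at day 3 by edgeR (1 at an unadjusted p under 0.05, and none by DESeq2), where 2 were called without replicate 2. Their sum was 228 to 287 CPM at day 0, 304 to 524 at day 1 and 157 to 626 at day 3, with the lowest and the highest value again in replicates 2 and 5. Pecam1 and Emcn were at 0.70 and 0.76 at day 1 and at 0.67 and 0.52 at day 3, not called (adjusted p from 0.0889 to 0.278).

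The summed level of 6 proximal tubule genes was lower in the 3-digit kidneys at day 1 and higher in them at day 3. It was 10215 to 11752 CPM at day 0, 3163 and 2529 in the 3-digit and 7263 to 11392 in the 1-digit kidneys of day 1, and 4480, 9979 and 4945 in the 3-digit and 2639 and 1766 in the 1-digit kidneys of day 3. Replicate 2 of day 3 was thus near day 0 in these genes. In that library H2-Ab1 was above every day 0 kidney, and H2-Aa, H2-Eb1 and Cd74 were below all of them. Lrp2, the endocytic receptor megalin, fell by 2.16 at day 1 and 1.71 at day 3 (adjusted p = 0.0109 and 0.0384), and Slc34a1, a phosphate transporter, was at -0.56 and -1.79 (adjusted p = 0.591 and 0.103), with 2 of the 6 lower on each day, and 4 of them at day 3 without replicate 2. Of 4 genes of the thick ascending limb and distal tubule, 3 were lower at day 1 and 4 at day 3. Umod, the most abundant protein of urine, fell by 0.57 and 1.32 (adjusted p = 0.0386 and 0.000512), and Slc12a1, the salt transporter of this segment, fell by 3.59 and 2.66 (adjusted p = 0.000864 and 0.00592). By format, Slc34a1 was lower in the 3-digit kidneys of day 1 (-3.03, adjusted p = 0.00156) and higher in those of day 3 (3.08, adjusted p = 0.00567), and the difference between the days was called for 5 of the 6 proximal tubule genes, all in that direction (list median -3.14). The part of cell make-up in the changes of the members was not tested.

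**Figure D5:**
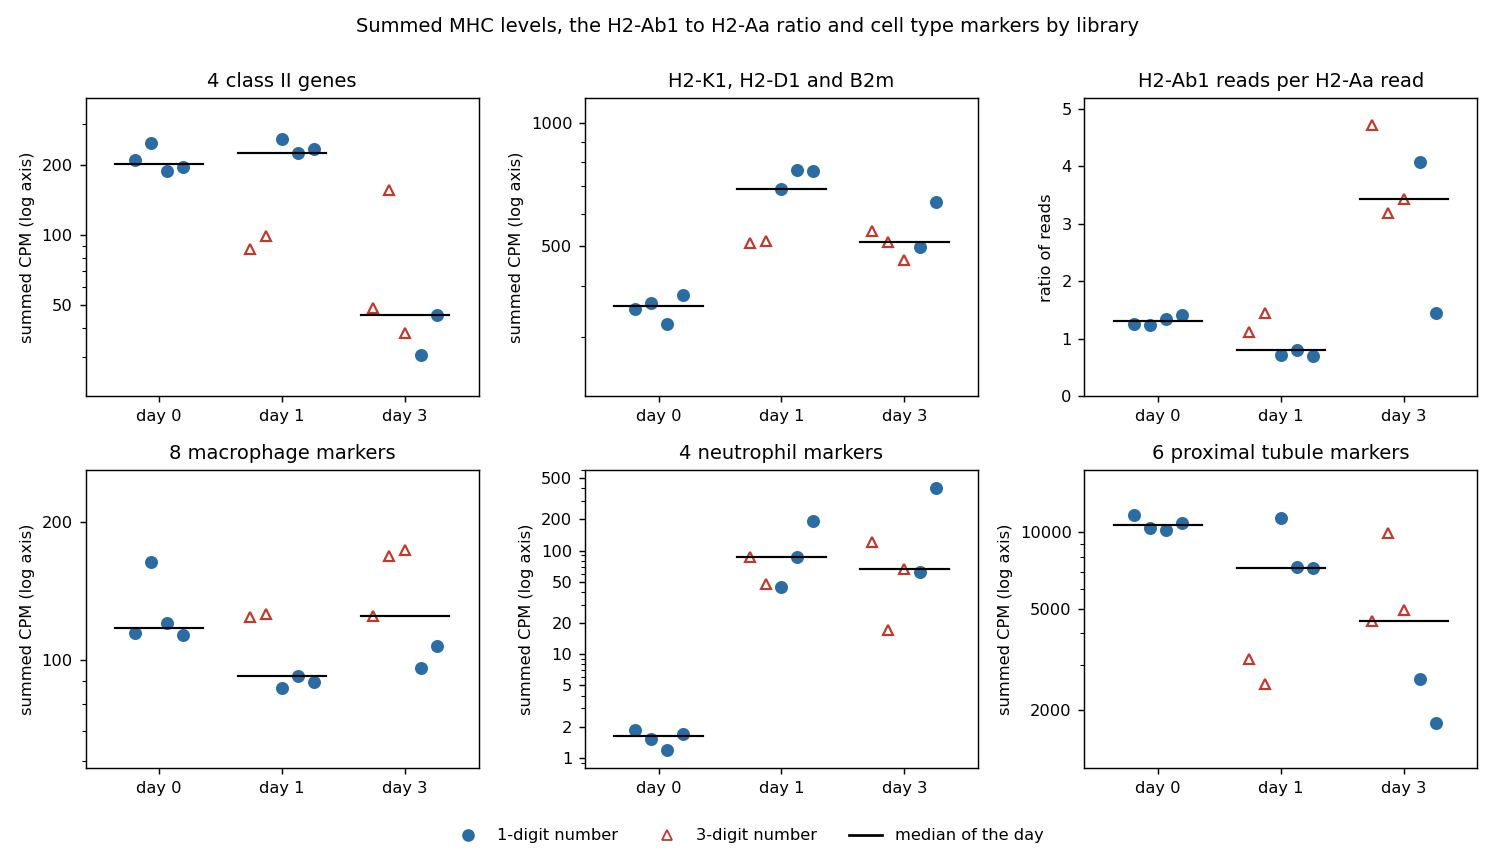
Values per library at day 0, 1 and 3 (1-digit filled circles, 3-digit open triangles, black line at the median of the day): summed CPM (log axes) of H2-Aa, H2-Ab1, H2-Eb1 and Cd74, of H2-K1, H2-D1 and B2m, and of macrophage, neutrophil and proximal tubule markers, and reads of H2-Ab1 per read of H2-Aa (linear axis from 0). Replicate 2 of day 3 has the highest class II sum of its day (157 CPM) and the highest proximal tubule sum (9979 CPM).

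The genes whose profile over the 14 libraries was nearest to class II were found among 10976 genes with a mean of at least 5 CPM. Nearness was the root mean square difference in mean-centred log2 CPM from the average of H2-Aa, H2-Ab1, H2-Eb1 and Cd74. The nearest were Cyp4b1 (0.278), H2-Ea-ps (0.321), F13b (0.331), Mdk (0.338) and Tmem27 (0.345), where the median gene was at 1.19. Of the averaged genes themselves, H2-Eb1 was at 0.181, Cd74 at 0.227, H2-Aa at 0.357 and H2-Ab1 at 0.545, the last 2 farther than all 5. For class I, taken over H2-K1, H2-D1, B2m and Tap1, the nearest were Shc1 (0.132), Sh3bp4 (0.133), Rhog (0.136), Ppfibp1 (0.141) and Gtf2a2 (0.148), where the median gene was at 0.619, and H2-K1 was at 0.122, Tap1 at 0.233, H2-D1 at 0.326 and B2m at 0.381, the last 3 farther than all 5.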

How the data were processed

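RNA of 14 mouse kidneys was sequenced on an Illumina platform after TRIzol extraction and TruSeq library preparation. Per the labels, the authors trimmed reads with Trimmomatic and mapped them with STAR to mm10, with versions not given in the sources used here. The deposited values are raw read counts per gene in the layout of STAR, in which reads that map to several places are counted in no gene (6.486 to 12.66% of the entries in each library), and 28.99 to 38.34% of the entries belonged to no gene. The strand column that held 98.5 to 98.75% of stranded reads was used. No pair of libraries of the same day agreed within sampling noise. Gene models came from GENCODE for GRCm38 and promoter windows from the RefSeq table for GRCm38.p6.

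Counts were analysed with edgeR 4.0.16 in R 4.3.3: a filter on low counts by day (14300 of 24411 genes kept), TMM scaling, a quasi-likelihood test with robust fitting over all 14 libraries, and Benjamini-Hochberg adjustment over all genes tested, called under 0.05. Format comparisons used 1 term per day and format. Log2 CPM used a prior count of 2. On data simulated from these libraries for day 1 against day 0, 167 of 197 genes changed by 2 on the log2 scale were recovered with the right sign among 14158 genes, with 7 false calls. The simulated data held no format difference, so these figures do not cover errors from format.

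The members and lists were chosen with earlier results of these data known. All members are named. Of each pathway list the 4 genes with the highest mean CPM are named, with those called against the list's main direction, and of each marker list the 2 highest and the defining markers at or near 0. Other genes named were chosen after their values were seen. The alternatives were the unstranded counts, DESeq2 1.42.0 size factors and its Wald test, no filter, the replicate number as a block, number format as a term, each format alone with day 0, and leaving out each library. Counts of list genes under these settings were added after seeing the data. Sequences were matched with Biopython 1.88. Intervals cover counting error only.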

Additional observations from a re-analysis of the deposited data

Results flagged for a closer look

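Among the 30 sets of 4 or 5 libraries (10 members on 3 days), 5 held a library far from the others of its day by Dixon's test, where 1.5 would pass by chance. Replicate 2 of day 3 was the high one in H2-Ab1 (68.9 CPM, others 14.7 to 25.4), H2-Eb1 (19.1 CPM, others 4.03 to 4.90) and Cd74 (47.3 CPM, others 7.67 to 15.9). Replicate 5 of day 3 was the high one in H2-K1 (228.8 CPM, others 119.2 to 138.6). Replicate 3 of day 0 was the low one in H2-K1 (81.7 CPM, others 95.9 to 97.8).

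The difference between 3-digit and 1-digit libraries was itself different at day 1 and day 3 in 4 class II genes by edgeR's interaction test. It was -2.51 on the log2 scale in H2-Aa (adjusted p = 0.0462), -2.40 in H2-Ab1 (adjusted p = 0.0223), -2.39 in H2-Eb1 (adjusted p = 0.0299) and -2.31 in Cd74 (adjusted p = 0.033). All 3 libraries of one format and both of the other lay apart in each of these genes at day 1, and only in H2-Ab1 and H2-Eb1 at day 3. How many of all genes lay apart in this way was not counted. What the format stands for was not tested.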

How the results depend on the processing

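Of 1230 member values under alternative settings, 1078 kept their direction and their side of the threshold, 75 lost a call, 50 gained one and 27 changed sign. Leaving out 1 library gave 3 to 5 members called at day 1 against day 0, 5 to 8 at day 3 against day 0, 2 to 5 between the injured days, 1 to 6 by format at day 1, 0 to 6 by format at day 3 and 0 to 4 in the difference between formats. With the 3-digit libraries alone 0 members were called between the injured days. By format at day 1, 5 were called with size factors by median ratios and 6 with DESeq2. By format at day 3, 1 was called without the filter, and in the difference between formats 2.

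The replicate numbers did not pair the libraries: of 13 pairs with the same number, deviations correlated at -0.171 to 0.264, and 4 passed 0.1. With the replicate block 4 members were called at day 1, 5 at day 3, 4 between the injured days, 4 by format at day 1, 0 by format at day 3 and 4 in the difference. At day 1 the block lost B2m (0.43, adjusted p = 0.0636) and gained Ciita (-2.20, adjusted p = 0.0329), and at day 3 it lost H2-K1 (0.53, adjusted p = 0.0531). Between the injured days it gained H2-D1 (-0.88). By format at day 1 it lost H2-K1 (adjusted p = 0.0668) and Tap1 (-0.65, adjusted p = 0.22), and it called H2-Aa, H2-Ab1, H2-Eb1 and Cd74. It turned H2-Aa at day 1 (-0.0075), Nlrc5 by format at day 1 (-0.030) and Tap1 by format at day 3 (0.29).

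At day 1, H2-Aa was -1.26 in the 3-digit libraries and Cd74 was 0.29 in the 1-digit ones. Between the injured days, Ciita was -1.55 and B2m -0.17 in the 1-digit libraries, and H2-Ab1 was 0.77 and Tap1 0.18 in the 3-digit ones. The cause was not tested. Values that changed sign when 1 library was left out follow as ranges. At day 1 against day 0 these were H2-Aa -0.078 to 0.35 and Cd74 -0.26 to 0.027. By format at day 1 these were Ciita -0.56 to 1.94 and Nlrc5 -0.34 to 0.46. By format at day 3 these were H2-Aa -0.48 to 1.47, H2-D1 -1.15 to 0.042, Tap1 -0.29 to 0.21 and Nlrc5 -0.053 to 1.00. In the difference between formats these were H2-K1 -0.57 to 0.14, H2-D1 -0.74 to 0.46 and Nlrc5 -0.88 to 0.18.

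What format stands for is unknown and day 0 has 1 format, so the pooled fits mix format with day. Ciita and Nlrc5 rest on at most 46 reads in a library, which limits their precision. Uniquely mapped reads miss stretches that class I genes share.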
